A study of Mus musculus with 8 samples.

Results

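The Cyp4a genes encode cytochromes P450 of the CYP4A subfamily, which hydroxylate fatty acids at the last (omega) carbon. Members were taken as every probe set that carries exactly 1 gene symbol in the platform table, with a symbol beginning with Cyp4a. This gave 5 of the 19938 genes tested: Cyp4a10, Cyp4a31, Cyp4a14, Cyp4a12a and Cyp4a12b. Each had 1 such probe set, so the rule of keeping the brightest probe set decided nothing here. The family was chosen by measured values with results of these arrays known. Which values is not stated in the rule, which names no more than a comparison of the 4 groups with the interaction, but high signals of Cyp4a10 and Cyp4a31 in HO2 knockdown against control were among the results known. Every comparison that uses the HO2 knockdown or control arrays is therefore given for these genes as a description, with no test. Combined against HO1 knockout shares no array with them and was tested. Its arrays do enter the interaction named in the rule, and whether they took part in the choice is not stated. The fit also drew its standard errors from the arrays of all groups, HO2 knockdown and control included. The adjusted p-values of these genes are therefore not shown to be free of the choice of the family.

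CYP4A enzymes are membrane-bound heme proteins of the endoplasmic reticulum, found mainly in liver and kidney. Their omega-hydroxylation starts the conversion of fatty acids to dicarboxylic acids, which peroxisomes shorten, and with arachidonic acid it yields 20-HETE, a vasoactive lipid. In mouse liver Cyp4a10 and Cyp4a14 are classical targets of PPARA, the nuclear receptor for fatty acids, and are induced by fasting and by fibrate drugs. Cyp4a12a is the main enzyme forming 20-HETE in mice and is more abundant in males.

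The cells were primary hepatocytes of male BALB/c mice, either HO1-/-, homozygous for a knockout of the gene for heme oxygenase 1, or HO1+/+ littermates. They were transduced with a lentivirus carrying an shRNA against HO2 (heme oxygenase 2) or a scrambled shRNA. The 4 groups of 2 arrays are called combined (HO1-/-, HO2 shRNA), HO2 knockdown (HO1+/+, HO2 shRNA), HO1 knockout (HO1-/-, scrambled shRNA) and control (HO1+/+, scrambled shRNA). All cells were selected with puromycin over 3 days and then pulsed with the glucocorticoid dexamethasone (30 min at 1 µM), and RNA was taken 28 h after the pulse, so that every value belongs to a common time. The labels state no age of the animals, and they name 1 HO2 hairpin. The question of the series, from its title, is the part of carbon monoxide metabolism in circadian transcription.

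Signals are given on the log2 scale as deposited, with array medians between 7.61 and 7.70 over all probe sets. Hmox2, which encodes HO2, had a log2 signal of 9.29 in combined arrays against 11.60 in HO1 knockout arrays, and of 8.35 in HO2 knockdown arrays against 11.49 in control arrays (means, n = 2). Hmox1, which encodes HO1, was at 12.44 in combined arrays against 11.55 in HO2 knockdown arrays, and at 11.97 in HO1 knockout arrays against 11.43 in control arrays. It was thus not lower where the label says HO1-/-, in a probe set that sums signal over the gene, and every direction given for the genotype rests on the labels. Hepatocyte markers were bright in all groups, with summed linear signals of the 13 measured genes of 101554 to 103328 in combined, 94625 to 97750 in HO2 knockdown, 66989 to 67183 in HO1 knockout and 57184 to 58515 in control arrays. The 15 macrophage markers summed to 34913 to 36864 in combined, 6608 to 6892 in HO2 knockdown, 35970 to 36337 in HO1 knockout and 7563 to 7914 in control arrays. Markers of macrophages were thus high in both HO1-/- groups. Across genes, Pearson's r was 0.997 to 0.999 between arrays of 1 group. The labels call replicates biological without naming animals or cultures, so the p-values rest on a spread between arrays that may be technical.

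Cyp4a10 and Cyp4a31 shared a pattern over the groups, with the highest signal in HO2 knockdown and the next in combined. Cyp4a10 had log2 signals of 7.47 and 7.60 in combined, 9.10 and 9.06 in HO2 knockdown, 6.51 and 6.14 in HO1 knockout and 6.46 and 6.31 in control arrays. HO2 knockdown lay above combined and combined above both scrambled groups, which overlapped each other. Cyp4a31 had 6.70 and 6.93 in combined, 8.78 and 9.39 in HO2 knockdown, 4.54 and 4.63 in HO1 knockout and 4.96 and 5.86 in control arrays. Its order was HO2 knockdown, combined, control and HO1 knockout with no overlap, although the control arrays lay far apart (SD 0.637, n = 2). In the HO1 knockout group Cyp4a31 was dim, with 2.86% of genes dimmer there, against 8.73% in control. Cyp4a10 was also rather dim in these groups, with 18.6% of genes dimmer in HO1 knockout and 19.1% in control. In dim probe sets background signal can make fold changes too small.

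Cyp4a14 followed the same order at a smaller scale. Its log2 signals were 6.01 and 6.26 in combined, 6.85 and 6.64 in HO2 knockdown, 5.70 and 5.73 in HO1 knockout and 5.90 and 5.62 in control arrays. HO2 knockdown was again above combined, combined above the scrambled groups, and these overlapped. Only 12.1% of genes were dimmer in control, so this gene was measured near the lower end of the scale.

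Cyp4a12a and Cyp4a12b had another order, in which combined was lowest. Cyp4a12a, the 20-HETE-forming enzyme, had 8.30 and 8.34 in combined, 9.70 and 9.71 in HO2 knockdown, 9.21 and 8.95 in HO1 knockout and 8.55 and 8.75 in control arrays. Cyp4a12b, its close paralogue, had 7.84 and 7.92 in combined, 9.01 and 9.23 in HO2 knockdown, 8.81 and 8.46 in HO1 knockout and 8.01 and 8.39 in control arrays. For both genes the order was HO2 knockdown, HO1 knockout, control and combined without overlap, and for Cyp4a12b the gap between the nearest HO1 knockout and control arrays was small beside the spread within those groups (SD 0.247 and 0.27). The plot of signals by array shows both orders side by side.

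**Figure D1:**
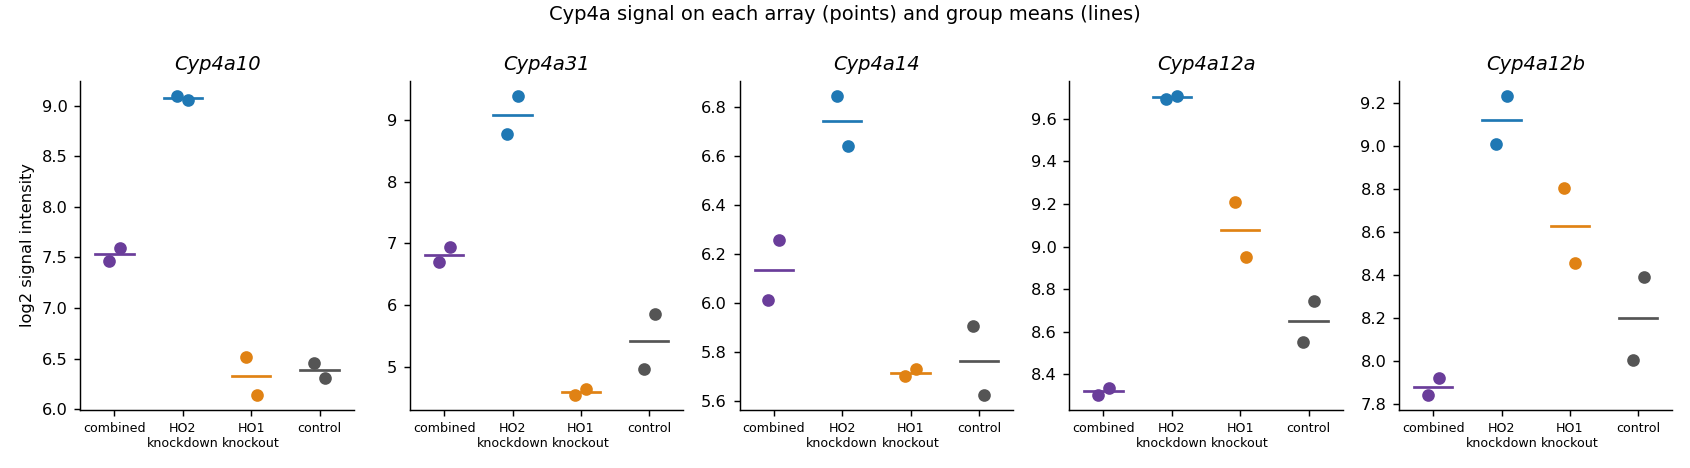
Log2 signal intensity (y axis, a separate scale for each gene) of the 5 Cyp4a genes in the 4 groups of 2 arrays (x axis), with a point for each array and a line at the group mean. HO2 knockdown is highest in every panel, while combined is second for Cyp4a10, Cyp4a31 and Cyp4a14 and lowest for Cyp4a12a and Cyp4a12b.

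HO2 shRNA in HO1-/- cells moved the family in opposite directions. The adjusted p-values of these genes carry the limit given above, that the choice of the family may have used these arrays. In combined against HO1 knockout, 3 of the 5 genes rose and 2 fell at an adjusted p under 0.05, where 23% of all genes tested changed, 10.2% rising and 12.8% falling (limma, Benjamini-Hochberg adjustment over all genes, as throughout). Cyp4a31 rose by 2.23 on the log2 scale (SE 0.22, adjusted p = 1.48e-06). Its HO1 knockout signal lay near the lower end of the scale and was not shown to be above background, so the 4.69-fold ratio of signals may understate the change. Cyp4a10 rose by 1.20 (SE 0.12, 2.31-fold, adjusted p = 1.38e-06). Cyp4a14 rose by 0.42 (SE 0.12, adjusted p = 0.0165), but this call was lost without HO1 knockout replicate 1, without HO1 knockout replicate 2 and without combined replicate 2 (adjusted p up to 0.232). Cyp4a12a fell by 0.76 (SE 0.092, 1.69-fold lower, adjusted p = 1.23e-05) and Cyp4a12b by 0.75 (SE 0.13, 1.68-fold lower, adjusted p = 0.000402), and both falls held without any single array. Markers of several cell types moved in the same comparison. Hepatocyte markers had 9 of 13 rising and 0 falling (median 0.57, against 0.014 over all genes), stellate cell markers 7 of 11 rising and 2 falling (median 0.30), endothelial markers 5 of 9 rising and 0 falling (median 0.40), and macrophage markers 4 of 15 rising and 4 falling (median 0.13). Their part in the changes was not tested, and in bulk RNA a smaller share of cells cannot be told apart from less RNA per cell.

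In HO1+/+ cells the corresponding values, given without a test, were positive for all 5 genes. HO2 knockdown minus control was 3.67 for Cyp4a31 (SE 0.22), 2.69 for Cyp4a10 (SE 0.12), 0.98 for Cyp4a14 (SE 0.12), 1.05 for Cyp4a12a (SE 0.092) and 0.92 for Cyp4a12b (SE 0.13), a comparison in which 33.2% of all genes were called. Combined minus control was 1.41 for Cyp4a31 (SE 0.22), 1.15 for Cyp4a10 (SE 0.12), 0.37 for Cyp4a14 (SE 0.12), -0.33 for Cyp4a12a (SE 0.092) and -0.32 for Cyp4a12b (SE 0.13), in a comparison that called 29.9% of all genes. The same control arrays enter both sets of values. The difference between the hairpin's changes in the 2 genotypes (the interaction, HO1-/- minus HO1+/+) was -1.44 for Cyp4a31 (SE 0.32), -1.49 for Cyp4a10 (SE 0.17) and -0.56 for Cyp4a14 (SE 0.17). For Cyp4a12a it was -1.81 (SE 0.13) and for Cyp4a12b -1.67 (SE 0.18). Over all genes the interaction was called lower for 7.57% and higher for 4.67%, from which nothing is read about these 5. Hmox2 itself fell by 2.30 in HO1-/- cells and by 3.14 in HO1+/+ cells (interaction 0.84, adjusted p = 3.86e-05), and the part of this unequal knockdown in the smaller Cyp4a changes was not tested. The comparisons of the hairpin in the 2 genotypes share no arrays. In HO2 knockdown against control hepatocyte markers had 10 of 13 higher and 1 lower (median 0.75, against -0.066 over all genes). Endothelial markers had 4 of 9 higher and 0 lower, stellate cell markers 2 of 11 higher and 3 lower, and macrophage markers 0 of 15 higher and 3 lower. Over all genes 16.5% were higher and 16.7% lower. The part of these markers in the Cyp4a differences was not tested.

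**Figure D2:**
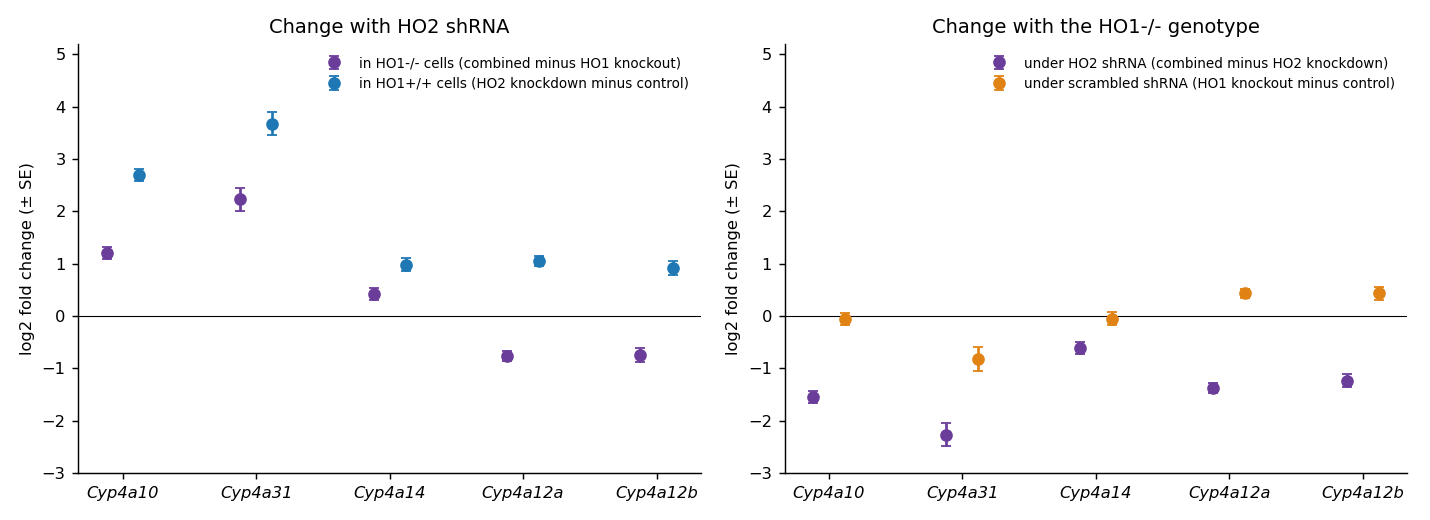
Log2 fold change (y axis, points with ± SE from the limma fit, n = 2 arrays a group) of the 5 Cyp4a genes (x axis) with HO2 shRNA in each genotype (left panel) and with the HO1-/- genotype under each shRNA (right panel). With HO2 shRNA in HO1-/- cells Cyp4a12a and Cyp4a12b lie below 0 at -0.76 and -0.75, and in HO1+/+ cells all 5 lie above 0. Under HO2 shRNA the signals of all 5 genes are lower in the HO1-/- genotype.

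The HO1-/- genotype under HO2 shRNA went with lower signal of the whole family. This comparison, combined against HO2 knockdown, reuses the HO2 knockdown arrays in which the family was known to be high, which favours a fall, so its values are a description without a test. Over all genes 34% were called here, 21% lower and 13% higher, from which nothing is read about these 5. Combined minus HO2 knockdown was -2.27 for Cyp4a31 (SE 0.22), -1.54 for Cyp4a10 (SE 0.12), -1.38 for Cyp4a12a (SE 0.092), -1.24 for Cyp4a12b (SE 0.13) and -0.61 for Cyp4a14 (SE 0.12). These are signals 4.81-fold, 2.92-fold, 2.61-fold, 2.36-fold and 1.53-fold lower. All 5 differences were also below 0 with arrays centred on their medians, a scaling under which 24.1% of the genes called were higher, against 38.2% as deposited. Macrophage markers rose here, 11 of 15 higher and 0 lower with a median of 2.49, and stellate cell markers had 1 higher and 7 lower of 11 (median -0.27). Hepatocyte markers had 4 higher and 2 lower of 13 (median 0.070). They ran from Ambp at 0.74 to Apoc3 at -0.18, with Alb at 0.070 and Ttr at -0.013. The part of the macrophage, stellate cell and hepatocyte signal in these differences was not tested.

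With scrambled shRNA the members differed by genotype in both directions. This comparison, HO1 knockout against control, reuses the control arrays and is likewise described without a test, and 12.8% of all genes were called in it, 5.62% higher and 7.2% lower. HO1 knockout minus control was 0.43 for Cyp4a12a (SE 0.092) and 0.43 for Cyp4a12b (SE 0.13), with both HO1 knockout arrays above both control arrays. It was -0.82 for Cyp4a31 (SE 0.22), with both HO1 knockout arrays below, but -0.37 without control replicate 2. For Cyp4a12b it was 0.24 without control replicate 1 and 0.26 without HO1 knockout replicate 1. Cyp4a10 differed by -0.057 (95% interval -0.31 to 0.20) and Cyp4a14 by -0.049 (95% interval -0.30 to 0.20), and for both the arrays of the groups overlapped. Macrophage markers rose here too (11 of 15 higher and 1 lower, median 2.22), hepatocyte markers had 7 of 13 higher and 1 lower (median 0.16), and stellate cell markers 0 of 11 higher and 7 lower (median -0.35). The control arrays also serve the HO2 knockdown comparison, and the combined arrays serve both comparisons that contain them.

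A further probe set, matched in the platform table to Cyp4a32, Cyp4a31 and Cyp4a10 together, cannot be given to a single gene and was left out of the tests. Its log2 signals were 8.80 and 8.94 in combined, 10.98 and 10.87 in HO2 knockdown, 6.80 and 6.73 in HO1 knockout and 7.49 and 7.76 in control arrays. This is the order of Cyp4a31. The means differed by 2.11 with HO2 shRNA in HO1-/- cells and by 3.30 in HO1+/+ cells. That the array holds a probe set for 3 genes shows how alike these paralogues are, and how far the single-gene probe sets also take up signal of their relatives was not tested.

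In RefSeq (GRCm38.p6) the Cyp4a genes form a cluster on chromosome 4 with 8 protein-coding genes and 2 pseudogenes, of which Cyp4a29, Cyp4a30b and Cyp4a32 were not analysed here alone. Along the chromosome the measured genes stand in the order Cyp4a12a, Cyp4a12b, Cyp4a14, Cyp4a10, Cyp4a31, so that the 2 genes that fell with HO2 shRNA in HO1-/- cells are next to each other among those measured, followed by the 3 that rose. Within 500 kb of a Cyp4a gene 22 other genes were measured. With HO2 shRNA in HO1-/- cells 3 of these rose and 4 fell (median 0.024), where 10.2% of all genes rose and 12.8% fell. They ranged from Pdzk1ip1 at 0.84 to Nsun4, which encodes a mitochondrial methyltransferase, at -0.98. Under HO2 shRNA the genotype raised 5 and lowered 6 of them (median -0.022, over all genes 13% and 21%), the lowest being Lrrc41 at -0.42. In HO1 knockout against control 1 rose and 1 fell (over all genes 5.62% and 7.2%). Of the related genes at the edges of the cluster, Cyp4b1 rose by 0.52 with HO2 shRNA in HO1-/- cells (adjusted p = 0.000386) and differed by -0.057 with the genotype under HO2 shRNA (adjusted p = 0.651). Cyp4x1 differed by -0.0091 and 0.042 in these comparisons and passed in neither.

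**Figure D3:**
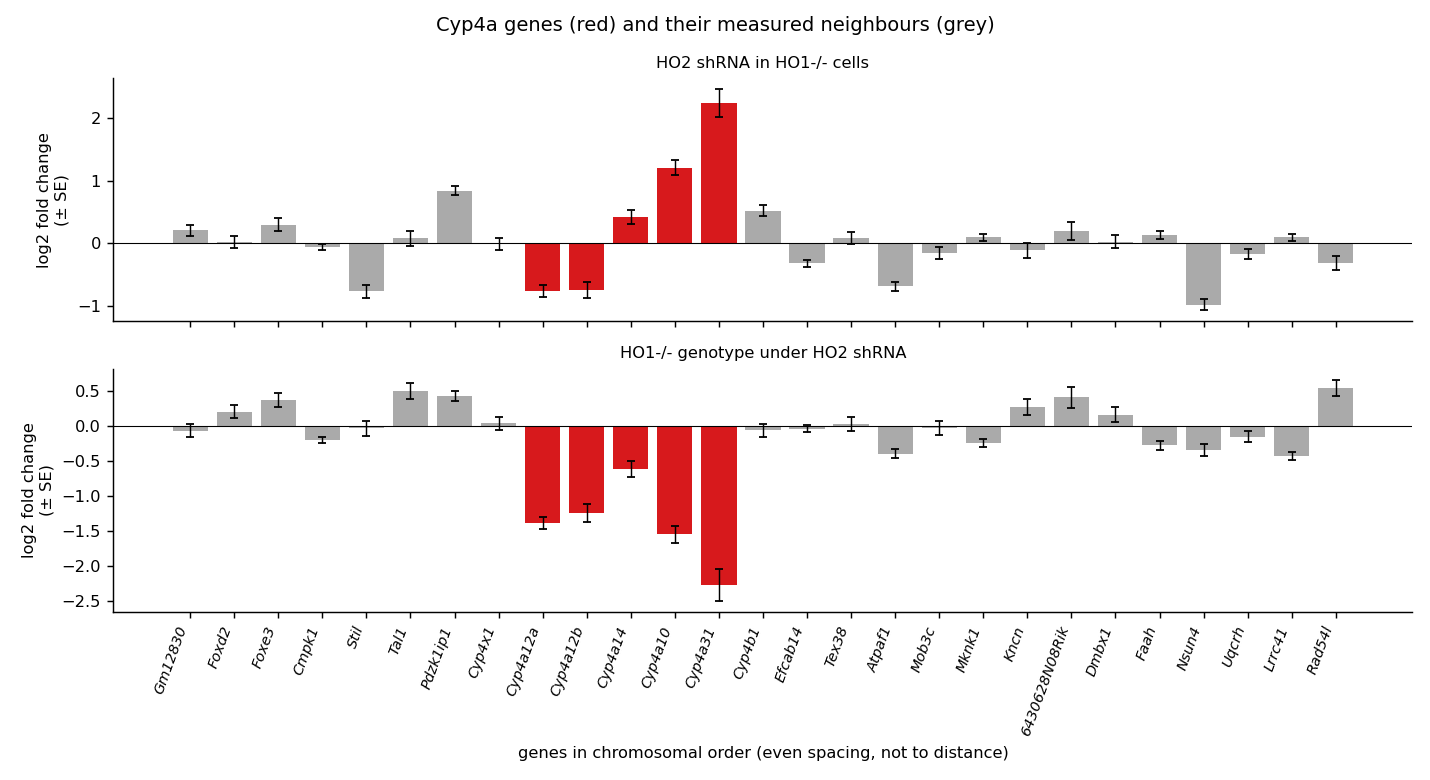
Log2 fold change (y axis, bars with ± SE) of the 5 Cyp4a genes (red) and their 22 measured neighbours (grey) in chromosomal order (x axis, evenly spaced), with HO2 shRNA in HO1-/- cells (upper panel) and with the HO1-/- genotype under HO2 shRNA (lower panel). In the lower panel the 5 Cyp4a bars run from -0.61 to -2.27 and the lowest neighbour is at -0.42.

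Most measured regulators, of PPARA signalling and of other liver receptors, rose with HO2 shRNA in both genotypes. Of 18 measured regulators (nuclear receptors, coactivators and clock output factors), 13 rose and 1 fell in HO1-/- cells (median 0.54), where 10.2% of all genes rose and 12.8% fell. In HO1+/+ cells 15 rose and 0 fell (median 0.66), where 16.5% of all genes rose and 16.7% fell. Hepatocyte markers moved alike, 9 of 13 rising and 0 falling in HO1-/- cells (median 0.57) and 10 rising and 1 falling in HO1+/+ cells (median 0.75), and their part in the rises was not tested. Ppara was at 9.59 in combined against 8.80 in HO1 knockout, and at 9.74 in HO2 knockdown against 9.02 in control (log2 means), a rise of 0.80 (adjusted p = 7.12e-07) and of 0.72 (adjusted p = 1.59e-06). Rxra, which encodes the partner with which PPARA binds DNA, rose by 0.62 and 0.64, and Ppargc1a, a coactivator gene, by 0.59 and 0.67. The interaction was 0.076 for Ppara (adjusted p = 0.666), -0.019 for Rxra (adjusted p = 0.898) and -0.084 for Ppargc1a (adjusted p = 0.598), and none of these passed. Dbp and Tef, clock output factors that in mouse liver feed into PPARA activity, rose by 0.62 and 0.61 in HO1-/- cells and by 0.67 and 0.59 in HO1+/+ cells, and Hlf by 0.30 and 0.46. Nr1i3, which encodes the xenobiotic receptor CAR, rose by 0.50 and 0.43. The highest was Nr0b2, which encodes the corepressor SHP (1.62 and 2.20), and the lowest in HO1-/- cells was Med1, a Mediator subunit gene (-0.24). Not called in HO1-/- cells were the receptor genes Ppard (0.0099) and Rxrb (0.082) and the coactivator genes Ppargc1b (-0.19) and Ncoa1 (0.17). Of these, Ppard (0.42) and Ncoa1 (0.34) rose in HO1+/+ cells. Under HO2 shRNA the genotype raised 0 and lowered 8 of the 18 (13% and 21% over all genes), the lowest being Nr1i2, which encodes the xenobiotic receptor PXR (-0.70). With scrambled shRNA the genotype raised 1 and lowered 2 of them (5.62% and 7.2% over all genes).

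Most measured targets of PPARA outside the family fell with the HO1-/- genotype under HO2 shRNA. Of 37, 0 rose and 29 fell in combined against HO2 knockdown (median -0.32, against 0.022 over all genes, of which 13% rose and 21% fell), or 19 fell without combined replicate 2. In that comparison 11 of 15 macrophage markers rose and 7 of 11 stellate cell markers fell, and their part was not tested. Ehhadh, the peroxisomal bifunctional enzyme of dicarboxylic acid shortening, was at 9.13 in combined and 10.21 in HO2 knockdown arrays (log2 means), a fall of 1.08 (SE 0.074, adjusted p = 2.24e-08). Acot1, an acyl-CoA thioesterase gene, fell by 0.83, the fatty acid binding protein gene Fabp1 by 0.70, and Aldh3a2, which oxidises fatty aldehydes after omega-hydroxylation, by 0.56. Pdk4, a brake on glucose oxidation, fell by 0.53, Acot4 by 0.51, Pex11a by 0.41, Vnn1 by 0.37, Acot3 by 0.32, Cpt1a, the gate to mitochondrial oxidation, by 0.25, Plin2 by 0.18 and Angptl4 by 0.13. Fgf21, a fasting hormone gene, was at 0.17 and did not pass (adjusted p = 0.201).

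With HO2 shRNA the targets moved in both directions. In HO1-/- cells 12 of 37 rose and 6 fell (median 0.058), where 10.2% of all genes rose and 12.8% fell. The number that rose was lower without combined replicate 1. Changes ran from Fabp1 at 1.73 to Retsat, a retinol saturase gene, at -0.74. In HO1+/+ cells 20 rose and 2 fell (median 0.24), where 16.5% of all genes rose and 16.7% fell. Ehhadh rose by 0.44 in HO1-/- cells and by 1.51 in HO1+/+ cells, with an interaction of -1.07 (adjusted p = 9.84e-06), and Pdk4 by 0.98 in both (interaction -0.0070, adjusted p = 0.963). Cd36, a fatty acid uptake receptor gene that macrophages also express, fell by 0.46 in HO1-/- cells and rose by 1.40 in HO1+/+ cells. In the interaction 0 of the 37 were higher and 12 lower, where 4.67% of all genes were higher and 7.57% lower. The number of targets lower varied when single arrays were left out. With scrambled shRNA the genotype raised 2 and lowered 11 (median -0.12), where 5.62% of all genes were higher and 7.2% lower. Fewer than these 11 were lowered without HO1 knockout replicate 2, without HO1 knockout replicate 1 or without control replicate 2.

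**Figure D4:**
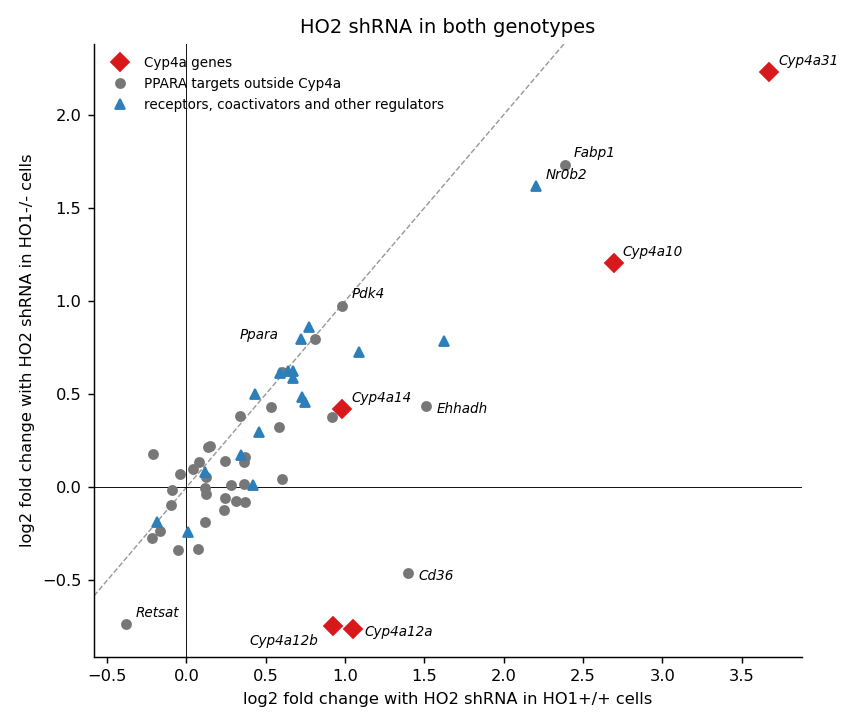
Log2 fold change with HO2 shRNA in HO1+/+ cells (x axis, HO2 knockdown minus control) and in HO1-/- cells (y axis, combined minus HO1 knockout) for the 5 Cyp4a genes (red diamonds), 37 PPARA targets (grey circles) and 18 regulators (blue triangles), with the line of equal change dashed. The Cyp4a genes lie below the line, and Cyp4a12a and Cyp4a12b lie below 0 on the y axis, as do several targets, the lowest being Retsat at -0.74.

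Downstream of omega-hydroxylation, 16 genes that carry fatty alcohols and aldehydes to peroxisomal shortening were measured. With HO2 shRNA in HO1-/- cells 6 rose and 1 fell (over all genes 10.2% and 12.8%), and in HO1+/+ cells 9 rose and 0 fell (16.5% and 16.7%). Under HO2 shRNA the genotype raised 1, Abcd2, and lowered 9 (13% and 21% over all genes), and with scrambled shRNA it raised 1 and lowered 3 (5.62% and 7.2%). The same shares over all genes apply to the counts that follow. Scp2, a peroxisomal thiolase and sterol carrier gene, had the highest change in HO1-/- cells (0.52) and Nudt7 the lowest (-0.22). Abcd3, a peroxisomal fatty acid importer gene, rose by 0.18 and Crot, which exports shortened chains as carnitine esters, by 0.25, and under HO2 shRNA they fell by 0.46 and 0.28 with the genotype. Among 4 measured electron donors and their helpers 0 rose and 1 fell with HO2 shRNA in HO1-/- cells. Cyb5a, which encodes cytochrome b5, differed there by -0.040 (adjusted p = 0.662), with Cyb5r3 highest (0.095) and Cyb5b lowest (-0.40). In HO1+/+ cells 3 rose and 0 fell, under HO2 shRNA the genotype raised 0 and lowered 3, and with scrambled shRNA it raised 1 and lowered 0.

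Other genes of arachidonic acid metabolism and signalling mostly rose, where called, with HO2 shRNA and went in both directions with the genotype. Of 19 measured, 9 rose and 1 fell with HO2 shRNA in HO1-/- cells, from the epoxygenase gene Cyp2j5 (2.46) to the lipoxygenase gene Alox5 (-0.56), and 10 rose and 3 fell in HO1+/+ cells. Under HO2 shRNA the genotype raised 5 and lowered 6, from Alox5ap (3.45) to Cyp2c70 (-0.45). With scrambled shRNA it raised 2 and lowered 4, from Alox5ap (3.64) to Cyp2c70 (-0.77). The soluble epoxide hydrolase gene Ephx2 rose by 0.75 and 0.72 with the hairpin in the 2 genotypes (interaction 0.025, adjusted p = 0.875). Of 11 measured genes of heme synthesis and breakdown, 1 rose and 2 fell with HO2 shRNA in HO1-/- cells, Hmox1 being highest (0.47) and Hmox2 lowest (-2.30), and 4 rose and 4 fell in HO1+/+ cells. Alas1, the rate-limiting enzyme of heme synthesis, was at 11.57 in combined and 12.16 in HO2 knockdown arrays, a fall of 0.59 (adjusted p = 8.75e-08). In that comparison 4 of the 11 rose and 5 fell, and with scrambled shRNA the genotype raised 2 and lowered 3.

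Other cytochromes P450 are given by their counts, with no test against the 5 Cyp4a genes. Of 82 measured, 5 rose and 20 fell with the HO1-/- genotype under HO2 shRNA (median 0.0043), where 13% of all genes rose and 21% fell. They ranged from Cyp7a1, the rate-limiting enzyme of bile acid synthesis (1.06), to Cyp21a1 (-1.82). With HO2 shRNA in HO1-/- cells 32 of the 82 rose and 4 fell (median 0.16), where 10.2% and 12.8% of all genes did, from Cyp3a11 (3.14) to Cyp1b1 (-1.79), and in HO1+/+ cells 39 rose and 9 fell, where 16.5% and 16.7% of all genes did. With scrambled shRNA the genotype raised 6 and lowered 13, where 5.62% of all genes rose and 7.2% fell. Among them, the 11 other Cyp4 genes had 0 higher and 1 lower under HO2 shRNA with the genotype, and 3 higher and 0 lower with the hairpin in either genotype, from Cyp4f15 (0.89) to Cyp4f18 (-0.11) in HO1-/- cells. With scrambled shRNA none of the 11 passed in limma.

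Within the family the arrays fell into both orders given above. Over the 8 arrays, which are 4 pairs of replicates, Pearson's r was 0.985 between Cyp4a12a and Cyp4a12b, and 0.919 to 0.972 among Cyp4a10, Cyp4a31 and Cyp4a14. Between the 2 and the 3 genes it was 0.473 to 0.577. These values describe likeness and carry no test. Among 1004 other genes whose group means spanned at least 1 log2 unit, those most like Cyp4a10 were Slc35d1 (r = 0.993), Creb3l3 (0.986), which encodes a liver factor of fasting lipid metabolism, Vps37c (0.986), Fmo5 (0.985) and Tle1 (0.985). Most like Cyp4a31 were Aldh1a7 (0.990), Swt1 (0.987), the organic anion transporter gene Slco1a4 (0.984), Dcun1d4 (0.983) and the peroxisomal membrane protein gene Acbd5 (0.982). Most like Cyp4a14 were Map3k13 (0.981), the bile acid synthesis gene Cyp8b1 (0.969), Creb3l3 (0.968), Inhbc (0.967) and Slc35d1 (0.964). For Cyp4a12a, looked up after the values were seen, the nearest gene was the methionine salvage gene Adi1 (0.923), at log2 means of 10.01 in combined, 11.06 in HO2 knockdown, 10.34 in HO1 knockout and 10.41 in control arrays.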

How the data were processed

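Total RNA (300 ng an array) was measured on 8 whole-transcript arrays. The authors deposited log2 intensities, 1 value a probe set. The submitters' processing notes name RMA, affy and R 2.15.0, with no chip definition or genome build stated there. No further normalization was applied. Of 34760 probe sets, 21640 carried 1 gene symbol and were used, 1321 carried several and 11799 none. The brightest probe set was kept for the 953 genes with several, leaving 19938 genes, 19855 of them matched to RefSeq.

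The fit was made with limma 3.58.1 in R 4.3.3, with a mean for each of the 4 groups and all 8 arrays together (4 residual and 11.2 prior degrees of freedom, mean-variance trend). Two-sided p-values were adjusted by Benjamini-Hochberg across the 19938 genes. A gene was called where the adjusted p was under 0.05, whatever its fold. Standard errors (SE) are limma's moderated ones. Only 2 arrays a group limit the precision. Simulated arrays carrying known changes were used to test the code.

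Both genotype comparisons were planned as tests of the Cyp4a genes too. They are given without p-values because they share arrays with the comparison known when the family was chosen.

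The members, gene lists and tests were chosen with earlier results of these data known. Named are every Cyp4a gene, a fixed set of genes of PPARA signalling, heme metabolism and omega-oxidation, the extremes of each list with HO2 shRNA in HO1-/- cells, and the 5 genes most like each of Cyp4a10, Cyp4a31 and Cyp4a14. Genes named as extremes in another comparison, and the regulators named as not called, were chosen after their values were seen. Cyp46a1, of another family, was kept out of the other Cyp4 genes. Same-numbered replicates deviated from their group means with correlations of -0.261 to 0.122 across genes, so the numbers were not taken as pairs. Alternatives covered the variance model, array weights, scaling, dim genes, probe sets per gene, the groups in the fit, the replicate number as a block and single arrays left out.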

Additional observations from a re-analysis of the deposited data

Results flagged for a closer look

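Cyp4a12a and Cyp4a12b are listed because their arrays differed without overlap in opposite directions in the 2 genotypes or under the 2 hairpins. This rule uses the control and HO2 knockdown arrays, and the share of all genes that meet it was not computed. With HO2 shRNA in HO1-/- cells Cyp4a12a changed by -0.76 and Cyp4a12b by -0.75, both combined arrays lying below both HO1 knockout arrays, while in HO1+/+ cells they were 1.05 and 0.92 higher. With the HO1-/- genotype under HO2 shRNA the changes were -1.38 and -1.24, while under scrambled shRNA both were 0.43 higher. For Cyp4a12b the nearest arrays under scrambled shRNA were at 8.46 in HO1 knockout and 8.39 in control. That gap was small beside the spread within these groups (SD 0.247 and 0.27). For these 2 genes the difference between the effects was not tested, since it contains the comparison known when the family was chosen.

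For other named genes the change with HO2 shRNA differed between the genotypes by limma's test of the interaction. It was lower in HO1-/- cells for Ehhadh (-1.07, adjusted p = 9.84e-06), Fabp1 (-0.65, adjusted p = 0.0282), Acot1 (-0.53, adjusted p = 0.0256) and Aldh3a2 (-0.45, adjusted p = 0.000206). It was also lower for Creb3l3 (-0.36, adjusted p = 0.0469), Pex11a (-0.36, adjusted p = 0.0194), Alas1 (-0.32, adjusted p = 0.00406), Crot (-0.29, adjusted p = 0.0112), Vnn1 (-0.28, adjusted p = 0.025) and Cyb5a (-0.28, adjusted p = 0.0138). It was higher for Hmox2 (0.84, adjusted p = 3.86e-05) and Hmox1 (0.34, adjusted p = 0.00305).

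The same test passed for other genes given in the text. The change was lower in HO1-/- cells for Cd36 (-1.85, adjusted p = 7.31e-09), Nr1i2 (-0.84, adjusted p = 0.000701), Scp2 (-0.62, adjusted p = 0.000836), Nr0b2 (-0.59, adjusted p = 0.0111) and Lrrc41 (-0.42, adjusted p = 0.00231). It was also lower for Cyb5b (-0.42, adjusted p = 0.000861), Ppard (-0.41, adjusted p = 0.00604), Ambp (-0.36, adjusted p = 0.00144) and Ttr (-0.26, adjusted p = 0.0111). The same holds for Med1 (-0.25, adjusted p = 0.0479) and Cyb5r3 (-0.18, adjusted p = 0.0463), while the change was higher for Cyp7a1 (1.06, adjusted p = 0.000173). Of the genes named for likeness to a Cyp4a gene, Creb3l3 is listed because it was also in the fixed set. The others are not listed, since their pattern chose them.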

How the results depend on the processing

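Over 87 repeats of the Cyp4a tests with HO2 shRNA in HO1-/- cells, 84 kept direction and side of the threshold, and 3, all of Cyp4a14, lost the call. Not all of these repeats could move a value. Those on probe sets per gene used the same values, since each Cyp4a gene has 1 probe set. Those without a control or HO2 knockdown array left the difference itself unchanged. In HO1 knockout against control the sign changed with single arrays left out for Cyp4a10 (-0.24 to 0.13) and Cyp4a14 (-0.19 to 0.091). Counted by the same threshold, though not used as a test, 1 Cyp4a gene was past it there without a mean-variance trend, and 0 to 3 with single arrays left out, against 3, and genes called in all numbered 1704 to 2937, against 2557. Restricting the test to genes brighter than the median gene left Cyp4a12a and Cyp4a12b alone in it. With HO2 shRNA in HO1-/- cells 2 were past the threshold. With the genotype under HO2 shRNA 2 were past it, again a count not used as a test. Both genotype comparisons share arrays with the comparison known when the family was chosen. Their Cyp4a counts are therefore not read as support for a change. With the genotype under HO2 shRNA 3826 to 8253 genes were called with single arrays left out, against 6775. The interaction called 1359 genes without a trend and 1301 to 4745 with single arrays left out, against 2442; its share of higher calls was 38.2% as deposited and 27.1% with arrays centred on medians, and for HO2 knockdown against control 49.7% and 62.9%. The cause of these shifts was not tested, apart from the fewer genes or arrays used. With the replicate number as a block, 4491 genes were called with HO2 shRNA in HO1-/- cells (4587 without it). With the genotype under scrambled and HO2 shRNA 2501 and 6563 were called. In HO1-/- cells no Cyp4a gene changed its side of the threshold with HO2 shRNA. With the control numbers crossed, chosen after seeing the data, 2875 genes were called in HO1 knockout against control and 7139 in HO2 knockdown against control. Dim signal limits Cyp4a14 and Cyp4a31 most, and Cyp4a10 to a lesser degree in the scrambled groups.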
